A study of Homo sapiens with 6 samples.

Results

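The genes followed here are 52 genes of DNA replication origin licensing and of the replisome, the protein machine that copies DNA. They were taken from a list of names: 6 subunits of the origin recognition complex (ORC), 3 licensing factors, 7 members of the MCM helicase family, CDC45 with the 4 GINS subunits, 5 genes of origin firing, 4 of DNA polymerase alpha and primase, 5 of polymerases delta and epsilon, 6 of the sliding clamp and its loader, 2 that process and join Okazaki fragments, 3 of the single-strand binding complex RPA, 4 of fork protection, and the 2 subunits of ribonucleotide reductase. All 52 were found among the 58523 annotated genes with a transcript in the files, and all 52 were among the 22580 genes with enough reads to be tested. RNA was sequenced from A375, an established human melanoma cell line from ATCC, in 3 cultures left untreated (control replicates 1 to 3) and 3 cultures given hMGL for 24 h (treated replicates 4 to 6). The enzyme hMGL is an engineered human methioninase, which degrades methionine. Both groups grew in the same serum-containing medium, and no vehicle or inactive enzyme is named in the labels. The series describes the cultures as independent, but all 6 come from 1 cell line, 1 time point was sampled and the labels give no dose.

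Replication origins are licensed when ORC, CDC6 and CDT1 load the MCM2-7 helicase onto DNA in a pair of rings, and geminin (GMNN) prevents a second loading by binding CDT1. At S phase the kinase CDC7 with its activator DBF4, together with cyclin-dependent kinase, brings CDC45 and GINS to the helicase, which turns it into the active unwinding motor. Polymerase alpha-primase then lays primers, the RFC loader places PCNA as a sliding clamp, and polymerases epsilon and delta copy the leading and lagging strands. Many of these genes are known as targets of E2F transcription factors and are expressed mainly from late G1 into S phase, so in cultured tumour cells they are often read as a marker of proliferation.

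The libraries held 50760266 to 59954677 estimated counts each. Over all genes, the edgeR quasi-likelihood test with Benjamini-Hochberg adjustment called 69.4% of the 22580 genes at an adjusted p of 0.05, 34.5% lower and 34.9% higher in treated cultures, with a median log2 fold change of -0.015. Of 8 melanocyte lineage markers, 5 reached a mean of 1 CPM (the counts of a gene set to a common library total) in a group, SOX10, MITF, S100B, S100A1 and PMEL, and their list summed to 544.7 to 614.6 CPM in controls and 431.3 to 445.8 CPM in treated cultures. SOX10 made up most of that sum, with 417 CPM in controls and 350 CPM in treated cultures, and was called lower. S100B fell from 38.6 to 5.83 CPM and S100A1 from 68.9 to 37.3 CPM. MITF did not pass, and PMEL was called higher, from 0.556 to 2.05 CPM. MLANA, TYR and DCT stayed under 1 CPM in both groups. The leukocyte markers PTPRC and CD3E and the epithelial EPCAM were each below 0.2 CPM on average in both groups, while CD68, known from macrophages but also present in other cells, was at 31.2 and 37.4 CPM and was called higher. The epithelial list summed to 0.494 to 0.613 CPM in controls and 1.16 to 1.63 CPM in treated cultures, with KRT5 and CDH1 called higher, each under 1 CPM. The summed endothelial markers were 0.872 to 1.52 CPM in controls and 2.53 to 2.81 CPM in treated cultures, and the fibroblast list, mostly PDGFRB, was at 11.8 to 14.0 and 3.65 to 4.31 CPM. The part of these markers in the results below was not tested.

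After 24 h of hMGL, 44 of the 52 replication genes fell and 8 rose, set against 34.5% of all tested genes lower and 34.9% higher. That is 84.6% of the replication genes lower and 15.4% higher. The genes that rose were ORC2, ORC4, ORC5, ORC6, GINS3, CDC7, DBF4 and FEN1. Among those that fell, log2 fold changes ranged from -2.48 for MCM6 to -0.17 for RFC3, and the median over all 52 was -0.81. Asked for a change beyond 1.5-fold (edgeR's glmTreat test), 33 genes were called lower and 3 higher, ORC5, GINS3 and DBF4, against 16.7% and 18.7% of all genes. A fall of at least 2-fold was seen in 23 of them, against 12.6% of all genes, and a rise of that size in 2, GINS3 and DBF4, against 14.6%. In all 52 genes the 3 treated values lay wholly on one side of the 3 control values, which was so below the controls for 36.5% and above them for 36.7% of all genes. The libraries are bulk RNA, so fewer cells that express a gene and less of its RNA per cell cannot be told apart.

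**Figure D1:**
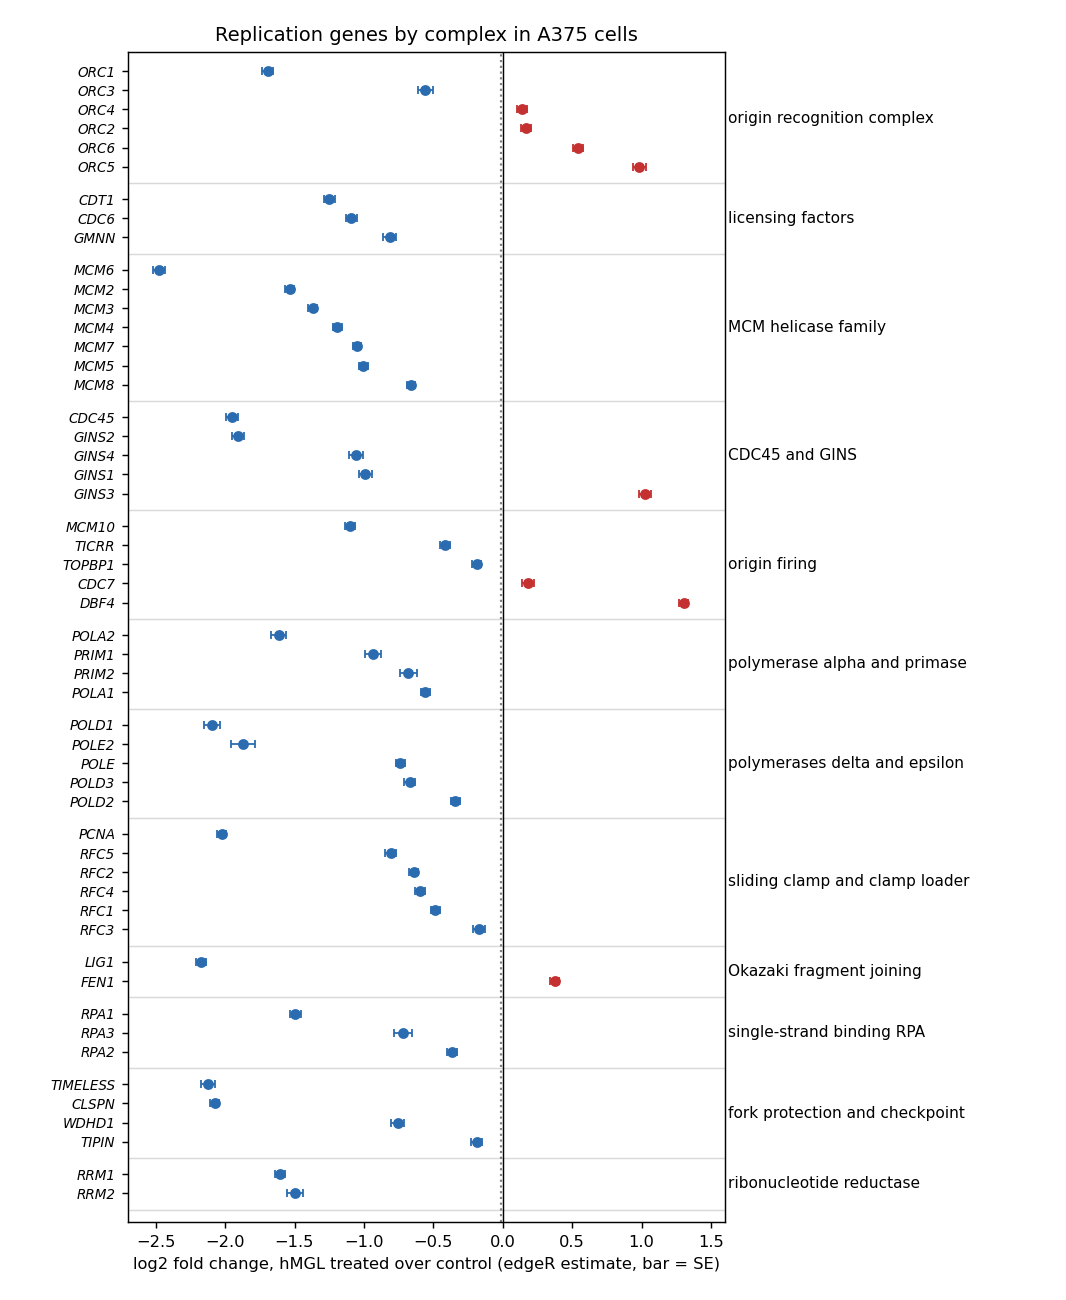
Log2 fold change of each of the 52 replication genes, treated over control, as estimated by edgeR from 3 libraries per group. Bars show a standard error (SE) derived from the F statistic of the test. Blue points fell and red points rose, the dotted line marks the median of all tested genes at -0.015, and every complex except ORC, CDC45 with GINS, origin firing and Okazaki fragment joining holds blue points alone.

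What the members share at their start sites was described from RefSeq promoter windows of GRCh38.p14, each running from 250 bases before to 50 bases after an annotated start. A window was found for 46 of the 52 genes, not for GINS4, RPA2, MCM4, RPA3, MCM5 and POLD3. Each was searched on both strands for 3 words of the E2F binding motif, TTTCGCGC, TTTGGCGC and TTTCCCGC, with overlapping matches counted, and for the CCAAT box. At least 1 E2F word was present in 23 of the 46 genes (50%), against 5.12% of the 13682 tested genes with a window and 2.74% of all 35116 windows. A CCAAT box was present in 28 of the 46 (60.9%), against 42.5% of the tested genes. The genes that fell held an E2F word in 21 of 38 cases and the genes that rose in 2 of 8, CDC7 and GINS3. Median log2 fold changes were -1.05 over the 23 genes with a word and -0.68 over the 23 without. The windows of ORC1, CDC45, POLD1, TIMELESS, RRM1, RRM2, RPA1 and MCM10, which all fell at least 2-fold, hold none. A match of letters describes the sequence and shows neither binding nor a cause, and a missing match says only that these letters are not in the window.

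A few of these promoters are printed to set the words beside the responses, from RefSeq's GRCh38.p14 windows, 5′ to 3′ on the gene's strand, cut to the bases before the annotated exons, with E2F words in capitals. MCM6, which fell most, holds 4 words in 2 overlapping pairs that begin at bases -152, -148, -90 and -86 from the start (chr2:135876444-135876693, minus strand). POLA1, the catalytic polymerase alpha subunit with a log2 fold change of -0.56, holds 1 word on the reverse strand at base -137 (chrX:24693668-24693917, plus strand). TIPIN, among the smallest falls, holds 2 overlapping words at bases -66 and -62 (chr15:66356717-66356935, minus strand, at 1 of its annotated starts). ORC5, which rose, holds none (chr7:104208048-104208263, minus strand).
MCM6: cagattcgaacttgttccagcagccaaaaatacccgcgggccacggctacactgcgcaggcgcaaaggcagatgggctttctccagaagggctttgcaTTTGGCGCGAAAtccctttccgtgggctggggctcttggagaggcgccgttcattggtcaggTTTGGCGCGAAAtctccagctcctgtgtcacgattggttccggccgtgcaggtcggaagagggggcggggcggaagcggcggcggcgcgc
POLA1: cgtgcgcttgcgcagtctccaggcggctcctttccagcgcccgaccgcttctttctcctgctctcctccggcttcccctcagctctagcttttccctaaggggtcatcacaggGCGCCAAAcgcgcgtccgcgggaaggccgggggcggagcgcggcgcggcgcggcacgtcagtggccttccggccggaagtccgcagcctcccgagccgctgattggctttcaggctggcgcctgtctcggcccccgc
TIPIN: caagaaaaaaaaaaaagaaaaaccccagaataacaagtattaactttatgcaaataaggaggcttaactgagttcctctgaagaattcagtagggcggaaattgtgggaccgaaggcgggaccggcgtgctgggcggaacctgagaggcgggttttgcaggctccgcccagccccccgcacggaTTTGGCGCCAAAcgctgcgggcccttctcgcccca
ORC5: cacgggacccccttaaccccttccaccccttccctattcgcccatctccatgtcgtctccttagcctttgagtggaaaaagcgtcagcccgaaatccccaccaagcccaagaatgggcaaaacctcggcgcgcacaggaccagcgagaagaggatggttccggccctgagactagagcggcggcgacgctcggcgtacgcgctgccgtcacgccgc

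The ORC subunits moved apart. ORC marks origins throughout the cell cycle, with ORC1 as the subunit whose level cycles in human cells. ORC1 (chr1:52372829-52404459) measured 65.7, 62.7 and 64.2 CPM in the control cultures and 19.4, 20.2 and 20.0 CPM in the treated ones. ORC5 (chr7:104126341-104208047), an ATP-binding core subunit, measured 32.7, 28.5 and 29.8 CPM in controls and 58.1, 59.8 and 62.0 CPM under hMGL. So ORC1 was low and ORC5 high in all 3 treated cultures, with no overlap in either, and log2 fold changes of -1.69 (SE 0.038, edgeR adjusted p = 1.04e-16) and 0.98 (SE 0.048, edgeR adjusted p = 1.97e-11). ORC6, the smallest subunit and the one least tightly held in the human complex, went from 49.1, 50.4 and 46.9 CPM to 70.8, 72.0 and 70.5 CPM, a 1.46-fold rise that was also clear of overlap.

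Smaller rises were measured in ORC2 and ORC4, which are also core subunits. ORC2 went from 38.0, 38.0 and 37.5 CPM to 42.6, 42.4 and 42.6 CPM. ORC4 went from 36.4, 35.6 and 37.1 CPM to 40.6, 38.8 and 40.7 CPM. These are 1.12-fold and 1.10-fold rises with edgeR adjusted p of 0.000339 and 0.00311, tight enough between replicates to pass although small. ORC4 exons overlap ACVR2A, which went from 11.5 to 32.5 CPM, and MBD5, from 9.64 to 8.45 CPM, both on the opposite strand. With strandedness unstated, the assignment of reads between them is uncertain. The ORC2 call was lost when effective transcript length entered the fit (log2 fold change 0.047, edgeR adjusted p = 0.546) and with limma on log2(TPM + 1) (adjusted p = 0.298). ORC3 fell by 0.56 on the log2 scale, from a mean of 23.3 to 15.8 CPM.

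All 3 licensing factors fell. CDC6, the ATPase that joins ORC to load the helicase, went from 117, 116 and 109.6 CPM to 51.6, 53.6 and 55.3 CPM. CDT1, which carries the MCM ring to the origin, went from 65.7, 62.8 and 61.6 CPM to 26.5, 27.4 and 26.1 CPM. GMNN, the inhibitor of CDT1, went from 34.2, 33.3 and 36.5 CPM to 20.0, 18.8 and 20.3 CPM. The loader pair therefore stood 2.13-fold and 2.38-fold lower and the inhibitor 1.76-fold lower in treated cultures, each without overlap, at edgeR adjusted p of 2.17e-14, 7.63e-15 and 3.82e-11.

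The MCM2-7 genes, which encode the 6 different subunits of the helicase ring, fell in every case. MCM6 (chr2:135839626-135876426) measured 105, 94.8 and 101 CPM in controls and 18.4, 17.5 and 18.1 CPM under hMGL, a 5.57-fold difference (log2 fold change -2.48, SE 0.044, edgeR adjusted p = 5.17e-18). It was the largest change of the 52 genes. MCM2 went from 334, 316 and 321 CPM to 110.3, 112 and 113 CPM. MCM3 went from 198, 189.9 and 194 CPM to 73.8, 74.1 and 77.5 CPM. Their treated cultures kept 0.345 and 0.387 of the control level, and neither gene's groups overlapped.

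The other ring subunits fell by 2.01-fold to 2.28-fold. MCM4 went from 389, 376 and 391 CPM to 166, 166 and 174 CPM. MCM5 went from 175, 164 and 174 CPM to 84.7, 84.8 and 86.1 CPM. MCM7 went from 481, 475 and 488 CPM to 232, 232 and 233 CPM. Log2 fold changes were -1.19, -1.01 and -1.05, each several times the spread between replicates, with edgeR adjusted p from 4.03e-16 to 1.18e-14. MCM8, a family member outside the ring that acts in recombination repair with MCM9, fell by 0.66 on the log2 scale, from 154 to 97.6 CPM on average.

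Because CPM depends on transcript length, levels of different subunits were set side by side in TPM (a share of all transcripts in the library, scaled by effective length), summed over protein-coding transcripts. The deposited effective length exceeded the transcript length in at least 1 library for 48 of the 138 coding transcripts of these genes with 1 CPM or more, in 21 genes, and the ratio of the lengths ran from 0.443 to 1.61. A longer effective length lowers a TPM, so the levels and shares between genes rest on these estimates. In MCM2-7, MCM6 was the scarcest subunit in controls with 7.31% ± 0.21 (SD, n = 3) of the summed coding TPM and dropped to 3.16% ± 0.086 (SD, n = 3). MCM7, the most abundant, held 31.7% ± 0.64 and then 36.8% ± 0.49 (SD, n = 3 each). In levels, coding MCM6 went from 24.1 ± 1.70 to 4.62 ± 0.40 TPM, and coding MCM7 from 104.5 ± 4.5 to 53.7 ± 3.2 TPM (SD, n = 3 each). Non-coding MCM4 transcripts, many of them short, raise the share of that gene when all its transcripts are summed: 48.6% of MCM2-7 TPM in treated cultures, against 19.3% by coding transcripts.

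**Figure D2:**
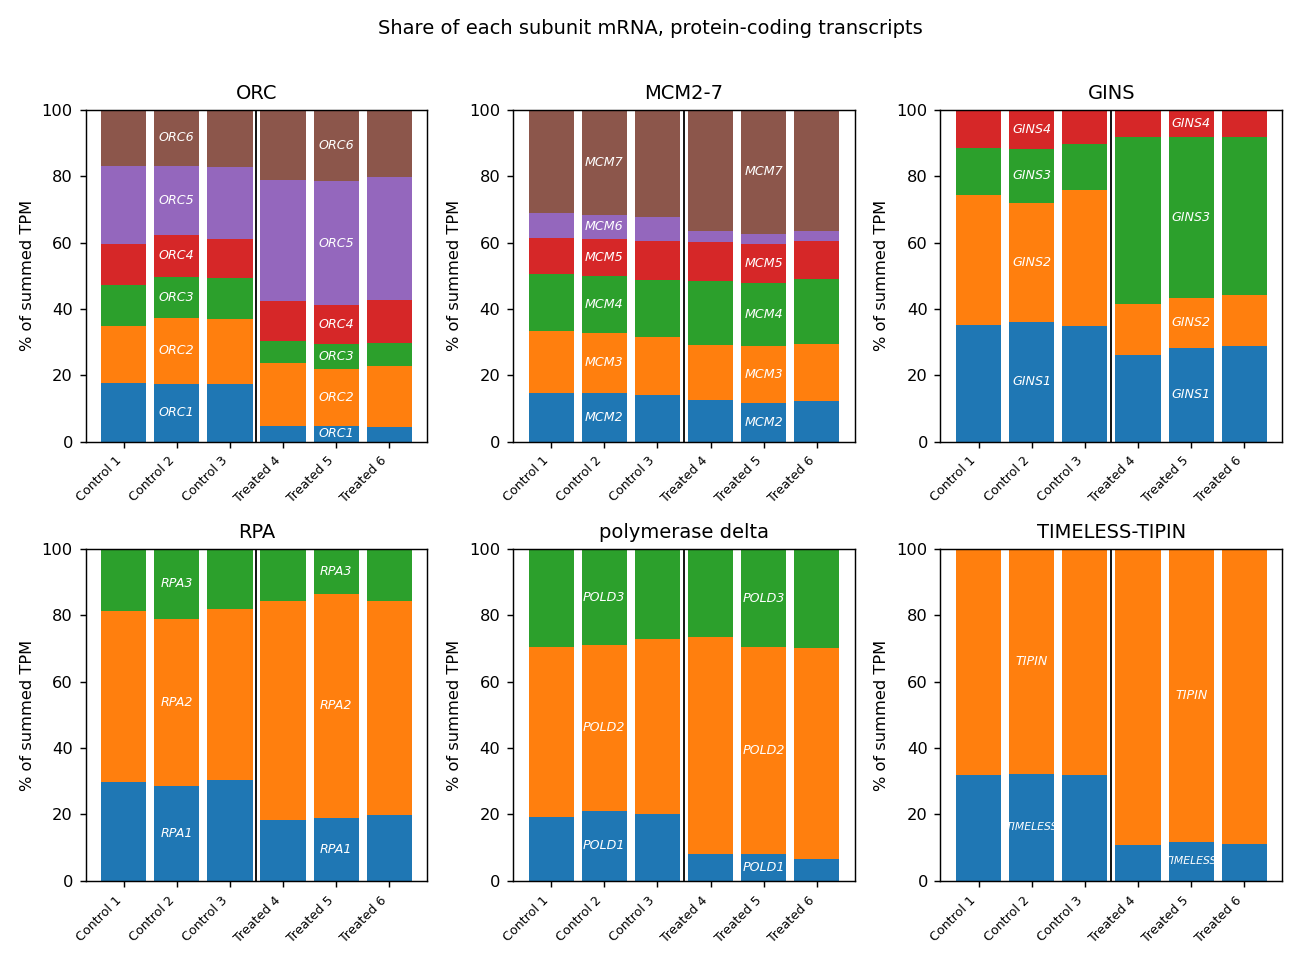
Share of each subunit in the summed TPM of protein-coding transcripts, in percent, for 6 complexes, 1 bar per library with the controls left of the vertical line. ORC5 and GINS3 take a larger part and ORC1, MCM6, GINS2, RPA1, POLD1 and TIMELESS a smaller part of their complexes in all 3 treated libraries.

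CDC45 and the GINS complex complete the active helicase. CDC45 measured 51.6, 50.6 and 51.1 CPM in controls and 13.4, 13.8 and 12.4 CPM in treated cultures, a 3.87-fold fall. GINS2 went from 55.2, 51.5 and 55.4 CPM to 14.7, 14.1 and 14.3 CPM, a 3.75-fold fall. GINS3 (chr16:58295080-58406144) went the other way, from 18.8, 19.0 and 17.9 CPM to 38.1, 38.3 and 36.9 CPM. Its 3 treated values all lay near double the control level, at a log2 fold change of 1.02 (SE 0.042, edgeR adjusted p = 2.94e-13).

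The remaining GINS subunits fell about 2-fold. GINS1 went from 52.3, 49.4 and 51.3 CPM to 23.8, 26.5 and 26.8 CPM, and GINS4 from 21.8, 21.7 and 22.0 CPM to 10.4, 10.6 and 10.4 CPM. The protein complex holds 1 copy of each of its 4 subunits, but their messages were far from equal. By coding TPM, GINS3 made up 14.8% ± 1.3 of the 4 in controls and 48.7% ± 1.3 in treated cultures (SD, n = 3 each), and GINS2 38.8% ± 2.4 and 15.3% ± 0.23. GINS3 thus exceeded only GINS4 in controls and exceeded the other GINS messages in treated cultures.

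Of the 5 origin firing genes, 2 were higher and 3 lower. DBF4 (chr7:87876216-87909541), the activating partner of the kinase CDC7, measured 79.6, 75.1 and 80.3 CPM in controls and 190, 194 and 196 CPM under hMGL. Its rise of 2.47-fold (log2 fold change 1.30, SE 0.033, edgeR adjusted p = 4.77e-16) was the largest rise of the 52 genes. CDC7 itself went from 28.97, 27.3 and 28.0 CPM to 31.4, 31.1 and 33.1 CPM, a 1.13-fold rise that kept apart from the controls but whose call was lost with effective length in the fit (log2 fold change 0.099, edgeR adjusted p = 0.12). MCM10, which binds the helicase as it is activated, fell from 92.7, 87.3 and 92.5 CPM to 41.4, 42.6 and 42.9 CPM. TICRR and TOPBP1, which bring CDC45 to origins under kinase control, fell by 0.41 and 0.19 on the log2 scale, and with limma on log2(TPM + 1) both calls were lost (adjusted p = 0.0545 and 0.105).

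Most DBF4 signal was assigned to transcripts that GENCODE annotates as targets of nonsense-mediated decay. DBF4-204 went from 42.1 ± 2.4 to 104 ± 2.8 CPM and DBF4-203 from 32.3 ± 0.81 to 75.3 ± 2.8 CPM (SD, n = 3 each). The full coding transcript DBF4-201 went from 2.45 ± 0.44 to 10.5 ± 0.98 CPM (SD, n = 3 each). Protein-coding transcripts thus made up 3.13% ± 0.53 of DBF4 counts in controls and 5.43% ± 0.61 in treated cultures, without overlap. Counted on coding transcripts alone, DBF4 had a log2 fold change of 2.13 (edgeR adjusted p = 2.56e-07), larger than over all its transcripts. ORC6 differed: its coding transcript ORC6-201 (22.1 to 33.6 CPM) and the retained-intron ORC6-207 (16.3 to 25.1 CPM) were both higher, and the coding share was 50.7% in both groups.

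**Figure D3:**
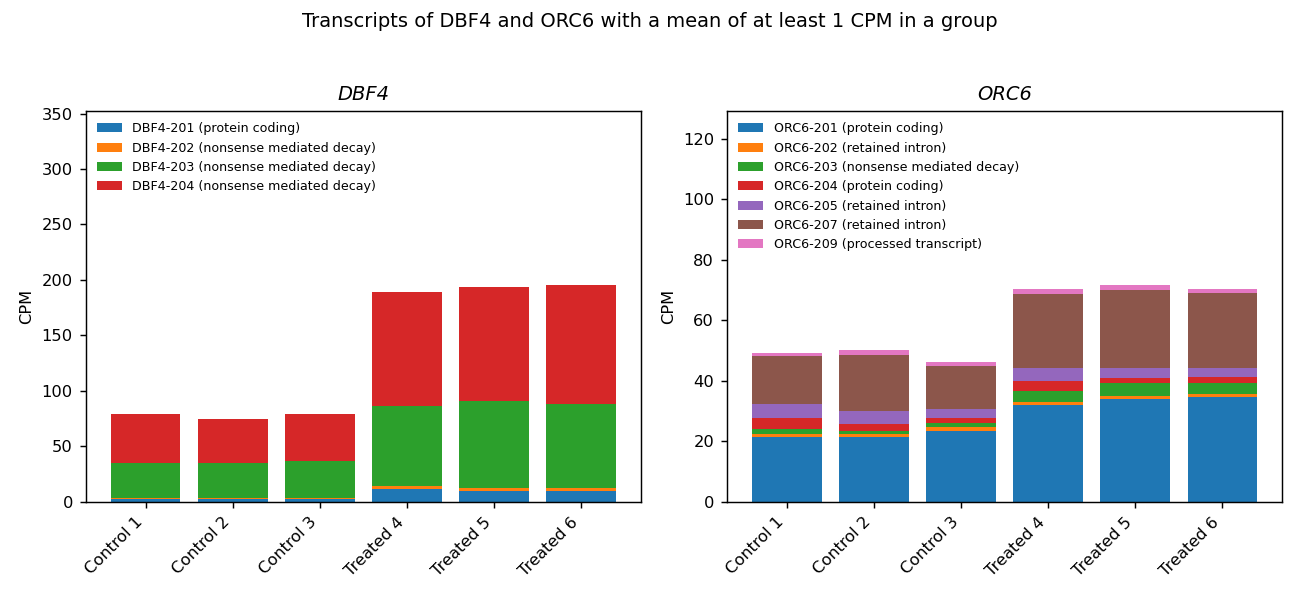
Stacked CPM of each DBF4 and ORC6 transcript with a group mean of at least 1 CPM, 1 bar per library, coloured by transcript with its GENCODE type. The 2 large DBF4 blocks, DBF4-203 and DBF4-204, are annotated as nonsense-mediated decay, and coding DBF4-201 is the thin block at the base.

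The same split into transcripts was made for all 52 genes. In 39 of them protein-coding transcripts took at least 80% of the counts in both groups. For 33 genes the coding share overlapped between groups, in 13 it was lower and in 6 higher in every treated library than in every control. Over the 15106 tested genes with a coding transcript, these shares were 16.3% lower and 12.3% higher. MCM2 is among the lower ones, at 87.9% ± 1.5 in controls and 78.7% ± 3.7 in treated cultures (SD, n = 3 each). ORC2 and POLE are among the higher ones, ORC2 going from 79.9% ± 2.5 to 86.7% ± 2.4 and POLE from 82.4% ± 2.4 to 89.3% ± 1.1. All 52 genes kept their direction and their call when coding transcripts alone were counted, and the log2 fold changes of the other risers were then 1.09 for GINS3, 1.01 for ORC5, 0.57 for ORC6, 0.40 for FEN1, 0.31 for ORC2 (0.17 over all its transcripts), 0.22 for CDC7 and 0.11 for ORC4.

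Polymerase alpha-primase, which starts each new strand, fell in all 4 subunits. POLA2, the regulatory B subunit, went from 33.7, 33.5 and 35.0 CPM to 10.3, 11.3 and 11.8 CPM, a 3.06-fold fall. PRIM1, the catalytic primase subunit, went from 27.6, 27.3 and 28.2 CPM to 14.1, 13.6 and 15.7 CPM. Neither overlapped with controls. POLA1 and the large primase subunit PRIM2 fell by less, by 0.56 and 0.68 on the log2 scale. Exons of POLA2 overlap another annotated gene on the same strand. Those of PRIM1 overlap NACA, also on the same strand, which went from 401 to 209.5 CPM. NACA had a log2 fold change of -0.94, close to the -0.93 of PRIM1. The assignment of reads between POLA2 or PRIM1 and these overlapping genes is uncertain.

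Polymerases delta and epsilon also fell in all 5 genes. POLD1 (chr19:50384204-50418016), the catalytic subunit of delta, went from 133, 135 and 139 CPM to 33.7, 33.0 and 28.5 CPM. POLE2, an accessory subunit of epsilon and the least abundant of the 52 genes by CPM, went from 12.4, 13.5 and 12.4 CPM to 3.74, 3.23 and 3.48 CPM. These 4.27-fold and 3.65-fold falls (edgeR adjusted p = 8.59e-11 and 1.34e-12) were larger than in the partners POLD2, POLD3 and POLE, with log2 fold changes of -0.34, -0.67 and -0.74. By coding TPM the POLD1 share of the 3 delta genes went from 20.1% ± 0.91 to 7.55% ± 0.75 (SD, n = 3 each). The POLE2 share of the epsilon pair went from 53.9% ± 2.5 to 30.6% ± 3.0 (SD, n = 3 each). With all transcripts summed, the POLD1 share went from 41.0% to 16.7% and the POLE2 share from 35.2% to 22.8%. The directions were the same, but the ranking of subunits depends on that choice. The POLD2 call was lost with limma on log2(TPM + 1), where its log2 fold change was -0.053 (adjusted p = 0.595).

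PCNA, the clamp that tethers the polymerases, stood apart from its loader. PCNA (chr20:5114953-5126626) measured 257, 246 and 262 CPM in controls and 63.7, 61.7 and 62.7 CPM in treated cultures, a 4.07-fold fall (log2 fold change -2.02, SE 0.033, edgeR adjusted p = 2.01e-18). RFC5, the loader subunit with the largest change, went from 47.4, 45.8 and 45.9 CPM to 27.5, 26.3 and 25.8 CPM, a 1.75-fold fall. Its exons overlap WSB2 on the opposite strand, which went from 94.2 to 52.9 CPM. With strandedness unstated, the assignment of reads between RFC5 and WSB2 is uncertain. RFC1, RFC2 and RFC4 fell by 0.49, 0.64 and 0.60 on the log2 scale. RFC3 was the smallest fall, from a mean of 44.9 ± 1.9 to 39.9 ± 1.7 CPM (SD, n = 3 each, edgeR adjusted p = 0.00197). With library totals in place of TMM scaling its log2 fold change was -0.092 and the call was lost (edgeR adjusted p = 0.0822).

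The nuclease and the ligase that finish Okazaki fragments, the short pieces of the lagging strand, moved in opposite directions. LIG1 (chr19:48115445-48170603), the ligase, went from 67.5, 65.9 and 67.8 CPM to 14.9, 15.1 and 14.5 CPM, a 4.52-fold fall. FEN1 (chr11:61792637-61797244), which trims the displaced flap before ligation, went from 254, 243 and 256 CPM to 329, 321 and 323 CPM. All 3 treated FEN1 values exceeded every control value, a 1.29-fold rise (log2 fold change 0.37, SE 0.029, edgeR adjusted p = 2.3e-09). Nearly all FEN1 counts were on 1 coding transcript, FEN1-201, at 249.7 ± 6.8 and 322 ± 4.0 CPM (SD, n = 3 each). FEN1 exons overlap exons of FADS2 on the same strand and TMEM258 on the other strand. FADS2 fell from 32.3 to 6.93 CPM while TMEM258 was at 28.2 and 30.6 CPM, each far under FEN1. The FEN1 mean went from 251 to 325 CPM, and the assignment of reads between these genes is uncertain.

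**Figure D4:**
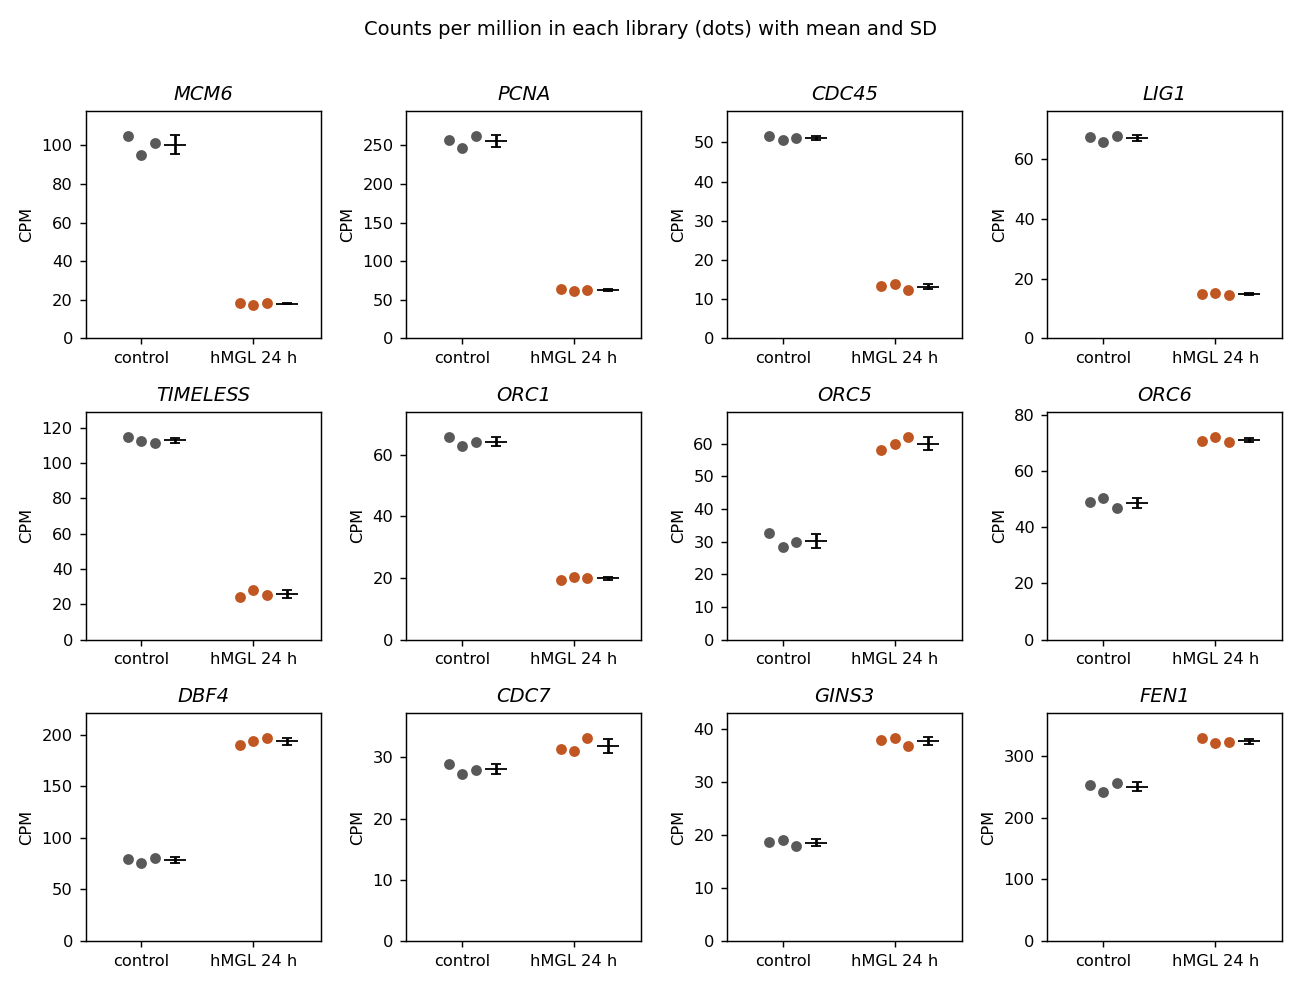
CPM in each control library (grey dots) and each treated library (orange dots) for 12 genes, with the mean and SD of the 3 libraries beside them and each axis starting at 0. The top row and TIMELESS and ORC1 are lower in every treated library, and ORC5, ORC6, DBF4, CDC7, GINS3 and FEN1 are higher.

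The 3 RPA genes, whose proteins coat single-stranded DNA as 1 trimer, fell unequally. RPA1, the large subunit that holds most of the DNA contacts, went from 171, 154 and 167 CPM to 57.1, 58.7 and 59.2 CPM, a 2.82-fold fall. RPA3, the smallest subunit, went from 17.3, 18.4 and 17.6 CPM to 10.8, 10.1 and 11.5 CPM, a 1.65-fold fall. RPA2 fell by 0.37 on the log2 scale, and its share of the coding TPM of the trimer went from 51.1% ± 0.68 to 66.1% ± 1.6 (SD, n = 3 each). The RPA2 call missed the threshold with limma on log2(TPM + 1) (adjusted p = 0.0503).

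Fork protection genes held both one of the largest and one of the smallest falls. TIMELESS (chr12:56416373-56449403), which binds TIPIN to steady the fork, went from 115, 112 and 112 CPM to 24.1, 28.1 and 25.4 CPM, a 4.36-fold fall. CLSPN, the claspin adaptor of the checkpoint kinase CHK1, went from 214, 207 and 214 CPM to 49.1, 51.0 and 50.4 CPM, a 4.21-fold fall. TIPIN, the binding partner of TIMELESS, changed by a log2 fold change of -0.19 (edgeR adjusted p = 0.000374), and with limma on log2(TPM + 1) that call was lost (adjusted p = 0.4). TIMELESS therefore went from 32.0% ± 0.23 to 11.2% ± 0.44 of the coding TPM of the pair (SD, n = 3 each). WDHD1, which links polymerase alpha to the helicase, fell by 0.76 on the log2 scale.

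Both subunits of ribonucleotide reductase, which makes the deoxynucleotides for DNA synthesis, fell together. RRM1, the catalytic subunit, went from 158, 151 and 156 CPM to 49.7, 53.2 and 50.3 CPM. RRM2, the radical-bearing subunit whose level rises in S phase, went from 370.1, 343 and 404 CPM to 131, 132 and 133 CPM. The control RRM2 values spread more than those of other members, yet the lowest was far above every treated value, and the falls were 3.04-fold and 2.82-fold (log2 SE 0.035 and 0.057, edgeR adjusted p = 7.08e-17 and 7.61e-08). By coding TPM the RRM1 share of the pair was 33.3% ± 1.1 in controls and 30.5% ± 1.5 in treated cultures (SD, n = 3 each), with an overlap between the groups.

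**Figure D5:**
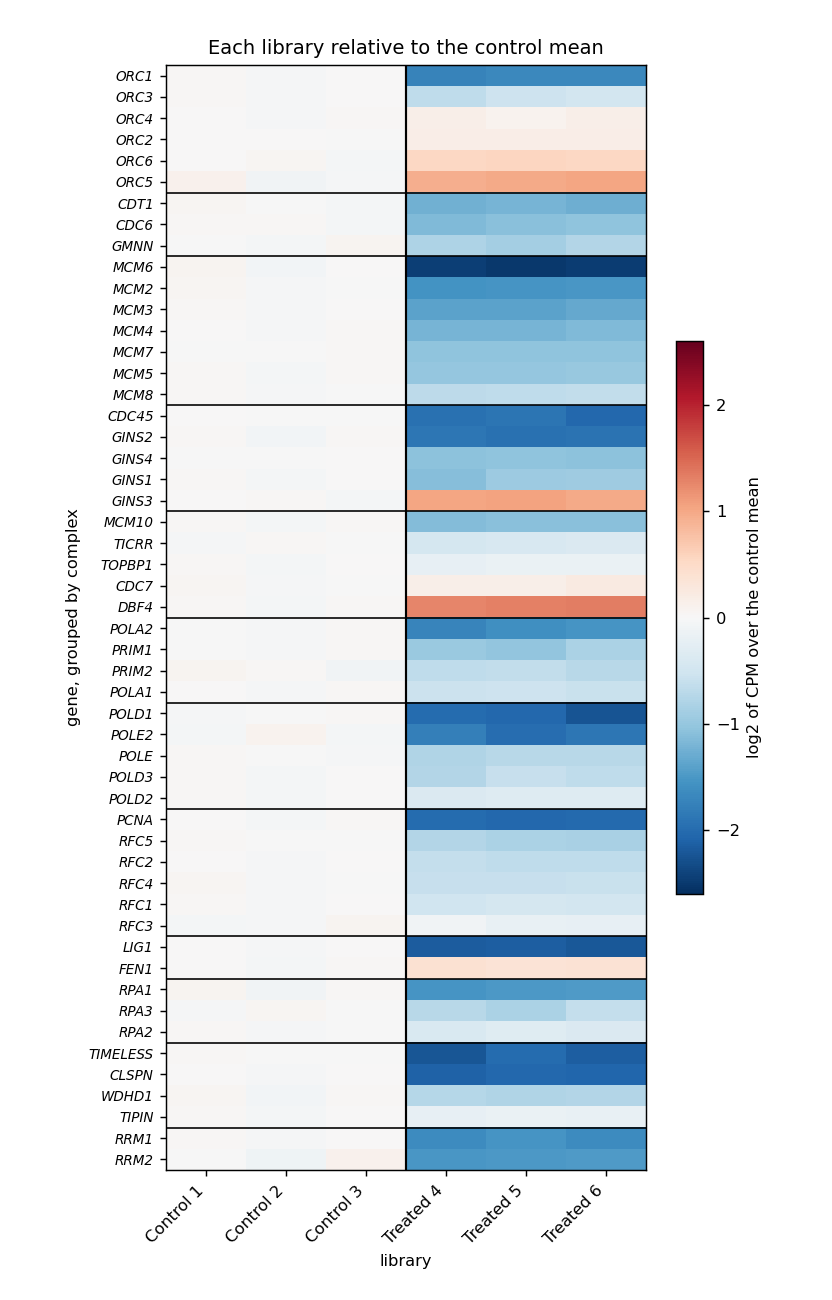
Log2 of the CPM of each library over the mean of the 3 control libraries, 1 row per gene and 1 column per library, with lines between complexes, blue for lower and red for higher. The 3 treated columns repeat each other row by row, from -2.48 for MCM6 to 1.30 for DBF4 in the edgeR estimate, and the control columns stay near 0.

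The size of the change varied within complexes as well as between them. Median log2 fold changes by complex were 0.15 for ORC, -1.09 for the licensing factors, -1.19 for the MCM family, -1.06 for CDC45 with GINS, -0.19 for origin firing and -0.81 for polymerase alpha-primase. They were -0.74 for polymerases delta and epsilon, -0.62 for the clamp and loader, -0.72 for RPA, -1.42 for fork protection and -1.55 for ribonucleotide reductase. Within a complex the spread reached from -1.69 to 0.98 in ORC and from -1.95 to 1.02 in CDC45 with GINS. It was narrower in the licensing factors, from -1.25 to -0.81.

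Beyond the 52 genes, 63 other genes of replication, its control and its nucleotide supply were tested with the same fit. Of these, 42 fell (66.7%) and 16 rose (25.4%), against 34.5% lower and 34.9% higher over all tested genes. The 5 that did not pass had log2 fold changes of 0.018 for MCM9, 0.074 for ASF1A, 0.11 for KAT7, -1.51 for UHRF1 and -0.38 for DDB1. Cyclin E2 (CCNE2), which drives entry into S phase with CDK2, showed the largest fall, with 36.5 ± 1.4 CPM in controls and 3.28 ± 0.28 CPM in treated cultures (log2 fold change -3.47). The histone chaperone ASF1B fell from 64.9 ± 1.6 to 12.4 ± 0.38 CPM, and the atypical repressor E2F8 from 12.9 ± 0.71 to 2.76 ± 0.13 CPM. Among the risers, E2F7, the close relative of E2F8, rose from 43.6 ± 0.77 to 109 ± 4.5 CPM. RAD17, which loads the checkpoint clamp, rose from 38.5 ± 2.0 to 90.7 ± 0.32 CPM, and the kinase CDK2 from 98.8 ± 2.2 to 179 ± 3.7 CPM (SD, n = 3 each throughout). Some paired genes moved apart here too: E2F7 rose while E2F8 fell. CDK2 rose while its cyclins CCNE1, CCNE2 and CCNA2 fell, with log2 fold changes of -1.66, -3.47 and -1.47. Other partners fell together, with log2 fold changes of -0.60 for ATR and -1.01 for ATRIP. Those of CHAF1A and CHAF1B were -0.86 and -1.21, and those of E2F1 and E2F2 -2.19 and -2.11.

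The counts by function stand beside 34.5% of all tested genes lower and 34.9% higher. The S phase entry genes had a median log2 fold change of -1.57 with 8 of 10 lower. The chromatin assembly genes had one of -1.13 with 6 of 8 lower. Nucleotide supply genes fell in 6 of 7, led by thymidylate synthase TYMS at -1.99, while RRM2B, the reductase subunit used outside S phase, rose by 0.33 on the log2 scale. Firing and fork partners were mixed, with 7 of 13 lower and 6 higher. Among additional polymerase subunits, POLE3 and POLD4 rose by 0.65 and 0.27 on the log2 scale and POLE4 fell by 0.14. DBF4B, a second activator of CDC7, rose by 0.68 on the log2 scale, beside the rise in DBF4.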

How the data were processed

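RNA from 6 A375 cultures (3 control, 3 treated with hMGL for 24 h) was measured by Illumina sequencing. The labels do not state strandedness or how RNA was selected. Per the file headers, the deposited tables give estimated counts and TPM for each transcript, in the columns of a kallisto table, and kallisto 0.45.0 with DESeq2 1.30.0 are listed as tools by the submitters' processing notes. The authors' genome build and index release are not given in the sources used here.

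Of 244939 transcripts, 203436 were matched by Ensembl identifier to GENCODE 29 (GRCh38) and summed to 58523 genes. The other 41503, with 4.86% to 5.13% of a library's counts, were left out. Gene coordinates are from GENCODE 29.

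Gene sums were rounded, filtered with filterByExpr (minimum count 10), scaled by TMM and tested two-sided with edgeR 4.0.16 (robust quasi-likelihood F test, R 4.3.3), adjusted over all 22580 genes (Benjamini-Hochberg, 0.05). CPM values and fold changes use the TMM scaling, which sets the libraries to each other by a trimmed mean over the tested genes. They are relative values and do not measure RNA per cell. The SE of a log2 fold change was derived as its absolute value over the square root of the F statistic. The code was tested on simulated counts in which few genes changed, equally in both directions, with the same spread for all. In these data 69.4% of genes were called, so that run does not check the scaling or small changes here. The 17 alternatives were RLE scaling, library totals, no filter, a minimum count of 50, DESeq2 1.42.0, limma 3.58.1 on log2 TPM with 3 settings (pseudocount 1 or 0.1 for genes of at least 0.5 TPM, and no filter), an effective length offset, coding transcripts alone, a 1.5-fold threshold (glmTreat) and each library left out. TPM shares, transcript values and promoter words carry no test.

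Values in every library are given for the 2 largest changes in each complex, every member that rose, MCM2 to MCM7, the GINS genes, PCNA, RRM2, CDT1, GMNN and CDC6, and for the 3 largest changes in each direction among the other replication genes, as means and SDs. Other genes are named for their role, some after their values were seen. The members and lists were chosen with earlier results of these data known. Whether the 3 cultures of a group share a starting stock is not stated, so p-values measure the spread between these cultures. One marker gene is not reported here.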

Additional observations from a re-analysis of the deposited data

How the results depend on the processing

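All 52 replication genes kept their direction under the 17 alternatives, and all 52 kept their call under RLE scaling, DESeq2, no filter, the stricter filter, coding transcripts alone and each left-out library. With each library left out in turn, 44 of the 52 stayed lower and 8 higher, 40 to 42 of the other replication genes were lower and 16 to 17 higher, and all genes called numbered 15050 to 15335. Calls were lost for RFC3 with library totals, for ORC2 and CDC7 with the length offset, and for ORC2, CDC7, TICRR, TOPBP1, POLD2, RFC3 and TIPIN with limma on log2(TPM + 0.1), with RPA2 added at a pseudocount of 1 and without a filter. Requiring a change of 1.5-fold (glmTreat) ended 16 calls, and 3 replication genes stayed called higher (ORC5, GINS3 and DBF4). Of the 63 other replication genes, 26 were called lower and 5 higher. Over all genes 7987 were called, against 15677 without that requirement. Of these 3764 were lower and 4223 higher, which is 16.7% and 18.7% of all genes tested. Over all genes, limma called 4555 of 18221, 4522 of 18221 and 4908 of 43447 lower (pseudocount 1, 0.1 and no filter), on TPM without TMM scaling. With edgeR 7796 of 22580 were lower, and 7024 with library totals. The cause of these differences was not tested. The median log2 fold change over all genes moved from -0.015 to 0.061 with library totals and to 0.094 with limma at a pseudocount of 0.1. HUS1, the 1 gene to reverse, had a log2 fold change of -0.144 on coding transcripts (edgeR adjusted p = 0.146). No paired analysis was possible because the labels give the groups no shared replicate numbers. Reads of genes with overlapping exons cannot be separated with strand unstated, and named pseudogene copies of the members stayed under 0.3 CPM.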

Other observations

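Several genes that work beside the 52 had values that differed between replicates. UHRF1, which guides the maintenance methyltransferase DNMT1 to newly copied DNA, measured 303, 313 and 300.1 CPM in controls and 135, 149 and 36.5 CPM in treated cultures. All treated values were lower, with treated replicate 6 far under the other two. The edgeR adjusted p was 0.0786 over all libraries and 1.7e-06 without that library (log2 fold change -1.08), and DESeq2 gave an adjusted p of 0.0148. DNMT1 itself fell by 0.75 on the log2 scale. DDB1, the adaptor of the CUL4 ubiquitin ligase that destroys CDT1, measured 155, 100.3 and 66.9 CPM in controls and 157, 34.3 and 56.8 CPM in treated cultures, so its spread within each group exceeded the difference between them. Its substrate receptor DTL and its scaffold CUL4A had narrow replicates: DTL rose by 0.29 on the log2 scale and CUL4A fell by 0.35. SAMHD1, which breaks down deoxynucleotides, was called lower at a log2 fold change of -0.21 (edgeR adjusted p = 0.0475) with overlapping groups. That call was lost without control replicate 1 or 3 or treated replicate 5 or 6 (edgeR adjusted p from 0.103 to 0.142).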
